A study of Mus musculus with 12 samples.

Results

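The genes described here are 10 genes of transforming growth factor beta (TGF-beta) signalling and its matrix output, out of 19037 genes in the expression table. They were taken by symbol as 3 ligand genes (Tgfb1, Tgfb2, Tgfb3), 2 receptor genes (Tgfbr1, Tgfbr2), 2 SMAD genes (Smad3, Smad7), 2 genes of secreted CCN proteins (Ccn1, Ccn2) and the fibronectin gene (Fn1). All 10 were found, and all 10 had enough counts to be tested. RNA was read from AML12 cells, a mouse hepatocyte line that came from a mouse carrying a human TGF-alpha transgene, in 12 libraries of 4 groups with 3 libraries each. The first group received FK228 and overexpressed YF mutants of class I histone deacetylases (FK228+YF), the second received FK228 (romidepsin, a class I histone deacetylase inhibitor), the third overexpressed the YF mutants (YF), and the fourth was control. The sample titles call the inhibitor HDI, and it is taken as FK228 here because the series' design names FK228 in the matching groups. Sample codes of the FK228 and control libraries carry the letters GFP, which the labels do not explain. No dose or treatment time is stated, nor which deacetylases were mutated. Whether replicates are separate cultures is not stated either, so p-values reflect the variation among libraries, possibly technical.

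TGF-beta ligands are secreted in a latent complex and, once released, bind the type II receptor, which recruits and phosphorylates the type I receptor. The active type I receptor phosphorylates SMAD2 and SMAD3, which join SMAD4 and switch target genes in the nucleus, while SMAD7 is an induced inhibitor that blocks the receptor. In hepatocytes the pathway is known for growth arrest, apoptosis and a mesenchymal shift, and CCN2, CCN1 and fibronectin are among its matrix-associated products. CCN1 and CCN2 are also classical targets of YAP and TAZ, which act through TEAD factors.

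Promoter windows of 300 bases, from 250 before to 50 after a listed gene start, were read from the RefSeq table of build GRCm38.p6. This table matched 6 of the 10 genes (Tgfb1, Tgfb2, Tgfbr1 with 2 starts, Tgfbr2, Smad3 and Ccn1), and windows of Tgfb3, Smad7, Ccn2 and Fn1 were not used here. Each window was searched on both strands for the letters of the motifs that follow. GGAATG is the core bound by TEAD factors, and CAGAC is the element bound by SMAD3 and SMAD4. TGANTCA is the element of AP-1 factors, which often join SMADs at target genes, and TGACGTCA is the cyclic AMP response element (CRE). GGGCGG is the GC box of SP1 and related factors, common in promoters without a TATA box, and TATAAA is the TATA box itself. The 4 windows below are shown because their genes went in different directions with the combined treatment: both receptor genes fell, and Tgfb1 and Ccn1 rose. Each is written 5′ to 3′ on the strand of the gene, with every motif match in capitals, and no match overlapped another.
Tgfb1 (chr7:25686752-25687051, plus strand): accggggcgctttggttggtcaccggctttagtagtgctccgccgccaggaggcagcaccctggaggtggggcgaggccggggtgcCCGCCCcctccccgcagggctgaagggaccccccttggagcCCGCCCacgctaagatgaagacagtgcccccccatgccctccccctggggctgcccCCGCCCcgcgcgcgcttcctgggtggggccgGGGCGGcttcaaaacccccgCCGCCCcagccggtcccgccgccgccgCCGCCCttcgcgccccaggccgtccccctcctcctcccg
Tgfbr1 (chr4:47352972-47353271, plus strand): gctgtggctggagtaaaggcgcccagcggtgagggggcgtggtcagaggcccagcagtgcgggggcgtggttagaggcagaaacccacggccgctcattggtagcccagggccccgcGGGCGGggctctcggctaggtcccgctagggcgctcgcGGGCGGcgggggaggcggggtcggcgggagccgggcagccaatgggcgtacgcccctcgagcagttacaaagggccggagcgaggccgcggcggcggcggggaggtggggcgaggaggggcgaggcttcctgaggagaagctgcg
Tgfbr2 (chr9:116175314-116175613, minus strand): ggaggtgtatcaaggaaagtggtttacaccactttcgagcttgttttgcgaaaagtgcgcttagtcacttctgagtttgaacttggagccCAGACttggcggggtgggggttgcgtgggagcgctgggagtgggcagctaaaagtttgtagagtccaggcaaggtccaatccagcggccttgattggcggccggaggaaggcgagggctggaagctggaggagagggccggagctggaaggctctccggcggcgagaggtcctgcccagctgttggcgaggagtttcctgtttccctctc
Ccn1 (chr3:145649936-145650235, minus strand): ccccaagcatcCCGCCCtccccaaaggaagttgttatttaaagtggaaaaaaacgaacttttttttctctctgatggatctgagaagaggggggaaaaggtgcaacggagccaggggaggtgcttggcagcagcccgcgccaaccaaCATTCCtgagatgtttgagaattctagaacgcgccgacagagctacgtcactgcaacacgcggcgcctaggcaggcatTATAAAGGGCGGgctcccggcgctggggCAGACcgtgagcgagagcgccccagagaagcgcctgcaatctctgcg
The Ccn1 window held a TEAD match starting at position -103 from the gene start, a TATA box at -25, GC boxes at -239 and -19 and a SMAD match at 4. A TEAD match occurred in 14.7% of 32851 windows of the same length, a TATA box in 13.6%, a SMAD match in 49.6% and a GC box in 35.7%. Tgfb1 held 6 GC boxes and the Tgfbr1 window shown held 2, while the Tgfbr2 window held a SMAD match at -160 as its single match. The window of the second Tgfbr1 start, not shown, also held a SMAD match, at -203, as its single match. Of the other windows not shown, that of Tgfb2 (chr1:186705940-186706239) lay inside the gene's range of 186622787 to 186709697 and at neither end of it. Counted from the start used for that window, it held SMAD matches at -221 and -204 and a TATA box at -31. That of Smad3 held GC boxes at -234 and -171. AP-1 letters (in 7.81% of windows) and CRE letters (in 1.79%) were not in any of the 7 windows of these genes. A match is a run of letters and not a measured binding site.

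Library totals ranged from 23664436 to 26122987 counts. In a principal component analysis the libraries of each group lay together (component 1 with 71.1% of the variance). Gene levels are given in CPM, which corrects each library for its TMM-adjusted size, and comparisons between genes use the deposited TPM, which account for length. The hepatocyte label was set against 10 markers, of which 6 averaged 1 TPM or more. The albumin gene Alb did not exceed 0.22 TPM in any library, and the summed hepatocyte markers stood at 212 to 235 TPM in FK228+YF libraries, 193 to 252 in FK228, 409 to 480 in YF and 363 to 432 in control. Trf, the transferrin gene, carried most of that sum, at 194 ± 11.6 TPM in FK228+YF, 181 ± 22.7 in FK228, 356 ± 27.8 in YF and 278 ± 26.4 in control. Hnf4a, a hepatocyte transcription factor gene, had another order, at 7.75 ± 0.212 TPM in FK228+YF, 13.3 ± 1.92 in FK228, 35.8 ± 2.7 in YF and 49.5 ± 3.31 in control, and Ttr and Apoa1 were also highest in control. Means of Apob, Cebpa and Serpina1a were highest in control, those of Alb and Fgb in YF and that of Apoa2 in FK228. Apob, Cebpa and Apoa2 overlapped between their highest group and others. Fgb had 1.28 ± 0.293 TPM in YF and 0.48 ± 0.173 in control. Of 6 listed genes of biliary and progenitor cells, 5 were in the expression table and 4 averaged 1 TPM or more. Spp1 was abundant, at 4195 ± 330 TPM in FK228+YF, 4664 ± 548 in FK228, 5021 ± 186 in YF and 3892 ± 209 in control (SD, n = 3 each). Cftr did not exceed 0.18 TPM in any library, and mean Sox9 ran from 3.35 TPM in FK228+YF to 6.15 in control. Krt19 of the same list had 108 ± 5.88 TPM in FK228+YF, 172 ± 6.46 in FK228, 316 ± 35.9 in YF and 667 ± 93.4 in control, and Krt7 and Sox9 were likewise lowest in FK228+YF and highest in control. Summed fibroblast markers reached 1.26 to 1.71 TPM in FK228+YF, 1.06 to 1.25 in FK228, 0.53 to 0.7 in YF and 0.29 to 0.33 in control. Col1a1 made up most of that sum in each group, at 0.86 ± 0.155 TPM in FK228+YF, 1.01 ± 0.0681 in FK228, 0.39 ± 0.0608 in YF and 0.267 ± 0.0231 in control, and Col1a2 and Col3a1 did not exceed 0.03 TPM. Of 6 stellate cell markers in the table only Des averaged over 1 TPM, at 12.2 ± 1.04 TPM in FK228+YF, 9.86 ± 0.854 in FK228, 5.39 ± 1.18 in YF and 2.97 ± 0.478 in control, while the stellate marker Lrat did not exceed 0.01 TPM. Summed macrophage and leukocyte markers stood at 61.8 to 70.6 TPM in FK228+YF, 38.6 to 45.2 in FK228, 89.1 to 113 in YF and 108 to 144 in control. Within that list Cd68 had 52.6 ± 5.11 TPM in FK228+YF, 23.1 ± 4.02 in FK228, 7.87 ± 0.973 in YF and 2.75 ± 0.402 in control, and Lyz2 was also lowest in control. Cd14 ran the other way, at 7.85 ± 1.26 TPM in FK228+YF, 15.4 ± 0.973 in FK228, 91.8 ± 11.6 in YF and 120.4 ± 18.6 in control, while the macrophage genes Adgre1 and Clec4f did not exceed 0.11 TPM. Summed endothelial markers did not exceed 0.46 TPM. The part of these marker changes in the results that follow was not tested. In bulk RNA, fewer cells that make a transcript and less transcript per cell cannot be told apart.

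In FK228+YF libraries Ccn2 was the most abundant of the 10 genes, at 318 ± 56 TPM, followed by Fn1 at 131 ± 13.4 and Ccn1 at 109 ± 20.6. In FK228 libraries Ccn2 also led, at 310 ± 12.9 TPM, with Fn1 at 141 ± 22.6 and Ccn1 at 134 ± 5.1, which do not differ beyond their spread. In YF libraries Fn1 led at 137 ± 15.5 TPM, ahead of Ccn2 at 113 ± 3.5 and Ccn1 at 99.9 ± 4.14, and in control libraries Ccn1 led at 86.5 ± 9.23, ahead of Fn1 at 61.1 ± 2.51 and Ccn2 at 55.2 ± 8.96. In control replicate 2 Ccn2 lay below Tgfbr1 and Smad3, and the control means of Ccn2 and Tgfbr1 do not differ beyond their spread. Tgfb2 was the lowest of the 10 in all 12 libraries, at 0.03 to 0.25 TPM. The other signalling genes lay between, and in control they ran from Tgfbr1 at 47.5 ± 4.67 and Smad3 at 47.2 ± 2.92 TPM, which do not differ beyond their spread, through Tgfbr2 at 24.7 ± 0.985, Tgfb3 at 17.4 ± 0.144 and Smad7 at 12 ± 1.34 to Tgfb1 at 5.75 ± 0.25.

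**Figure D1:**
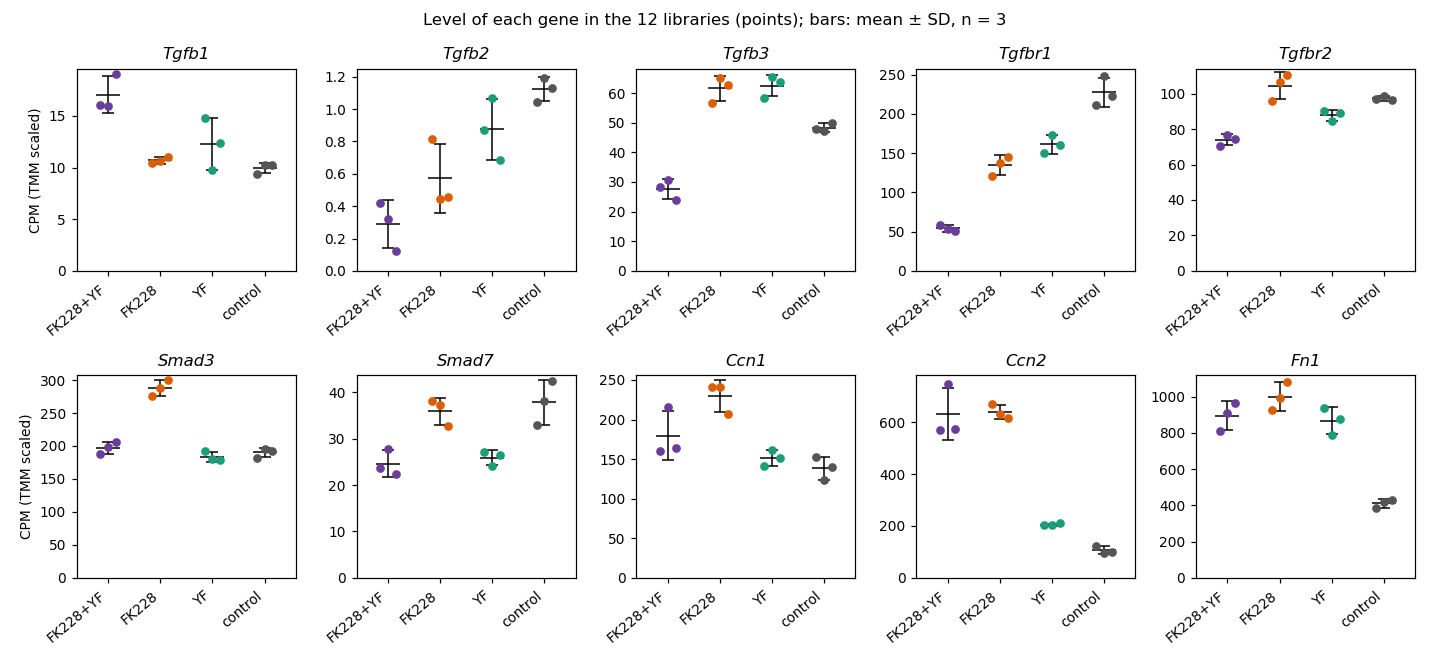
Level of each of the 10 genes (CPM with TMM scaling, axes from 0) in each library, by group. Points are libraries and bars give the mean and SD of 3 libraries. Ccn2 and Fn1 are lowest in all control libraries, and Tgfbr1 is lowest in all FK228+YF libraries.

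With the combined treatment, 9 of the 10 genes passed the test against control, 4 higher and 5 lower. Among all 13346 genes tested 77.4% were called in this comparison (38.8% higher and 38.6% lower). FK228 alone changed 7 genes, 5 higher and 2 lower, against a background of 68.8% called (33.2% higher and 35.5% lower). YF alone changed 5 genes, 3 higher and 2 lower, against a background of 32.6% called (18% higher and 14.6% lower). With backgrounds this large, the counts by themselves set these genes apart from no others. The median log2 fold change of the 10 was -0.17 for FK228+YF, 0.23 for FK228 and 0.04 for YF, beside medians over all genes of 0.01, -0.02 and 0.01. These 3 comparisons share the control libraries. Fn1 and Ccn2 were higher in each of them, and Tgfbr1 was lower in each.

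**Figure D2:**
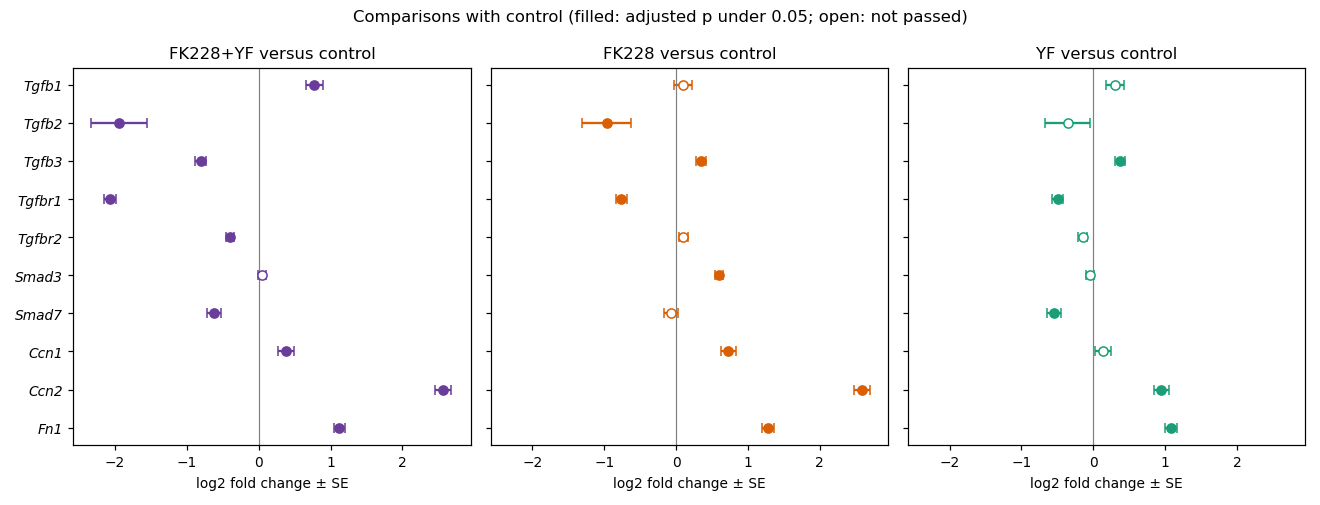
Log2 fold change against control with its SE, for FK228+YF (left), FK228 (middle) and YF (right). Filled points passed the test and open points did not, and Ccn2 at 2.57 with FK228+YF and 2.59 with FK228 lies farthest to the right.

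Among the ligands, Tgfb3 was the main transcript per length in control cells and was level with Tgfb1 when both treatments were given. Tgfb3 (chromosome 12, 86056743 to 86079041) encodes TGF-beta 3. It stood at 28.3, 30.5 and 24.0 CPM in FK228+YF libraries, at 56.8, 65.2 and 62.6 in FK228, at 58.4, 65.3 and 63.8 in YF and at 48.0, 47.2 and 49.9 in control. The FK228+YF libraries were all below control, and the libraries of each single treatment were all above it. Tgfb3 fell with FK228+YF against control, at a log2 fold change of -0.81 ± 0.08 (adjusted p = 6.26e-09), and rose by 0.35 ± 0.08 with FK228 (adjusted p = 0.000344) and by 0.37 ± 0.07 with YF (adjusted p = 0.000674). Within YF cells FK228 lowered it, at a log2 fold change of -1.18 ± 0.08 (adjusted p = 2.04e-11), and within FK228-treated cells YF lowered it, at -1.16 ± 0.08 (adjusted p = 2.69e-10). FK228 set directly against YF gave -0.02 ± 0.07, which did not pass (adjusted p = 0.803).

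Tgfb1 (chromosome 7, 25687002 to 25705077) encodes TGF-beta 1, the best studied isoform in liver fibrosis. Its level was 16.1, 15.99 and 19.1 CPM in FK228+YF libraries, 10.4, 10.6 and 11.0 in FK228, 14.8, 9.72 and 12.3 in YF and 9.37, 10.2 and 10.3 in control. The FK228+YF libraries were above those of every other group, whereas YF overlapped control. Tgfb1 rose with FK228+YF, 1.71-fold against control (log2 0.78 ± 0.12, adjusted p = 5.78e-06), 1.59-fold against FK228 (adjusted p = 8.79e-05) and 1.39-fold against YF (adjusted p = 0.0013). FK228 alone gave a log2 fold change of 0.10 ± 0.13 (adjusted p = 0.471) and YF alone 0.30 ± 0.12 (adjusted p = 0.0655), and neither passed. YF replicate 2 was the low library: without it the YF change was 0.45 and passed (adjusted p = 0.0061, with a range of 0.0061 to 0.396 over the alternatives). FK228 set against YF gave -0.20 ± 0.12 (adjusted p = 0.17), and without that library -0.34 (adjusted p = 0.0149).

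Tgfb2 (chromosome 1, 186622787 to 186709697) encodes TGF-beta 2 and was close to the limit of detection. Its rounded counts summed to 21 over the 3 FK228+YF libraries, 42 in FK228, 68 in YF and 87 in control, and single libraries held 3 to 31. Levels were 0.417, 0.323 and 0.126 CPM in FK228+YF, 0.816, 0.445 and 0.455 in FK228, 0.869, 1.07 and 0.686 in YF and 1.05, 1.19 and 1.13 in control. The FK228+YF and FK228 libraries lay below all control libraries, and the YF libraries overlapped control. Tgfb2 fell with FK228+YF, at a log2 fold change of -1.94 ± 0.39 against control (adjusted p = 0.000124) and -1.58 ± 0.40 against YF (adjusted p = 0.00154). It also fell with FK228 alone, at -0.97 ± 0.34 (adjusted p = 0.0171), a call that ended without FK228 replicate 2 (-0.80, adjusted p = 0.0787) or FK228 replicate 3 (-0.83, adjusted p = 0.0718). FK228+YF against FK228 gave -0.97 ± 0.43 (adjusted p = 0.0659), and without FK228+YF replicate 1 it passed (-1.32, adjusted p = 0.04). YF alone gave -0.36 ± 0.32 (adjusted p = 0.418), which at these counts was not detectable as a change.

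The make-up of the ligand transcripts is given on the deposited TPM scale. Summed ligand TPM was 19.3 ± 0.719 in FK228+YF, 26.7 ± 3.26 in FK228, 31.5 ± 1.19 in YF and 23.4 ± 0.127 in control (SD, n = 3 each). Tgfb3 made up 50 ± 5.41% of this sum in FK228+YF, 77.8 ± 1.11% in FK228, 75.5 ± 4.71% in YF and 74.3 ± 0.943% in control. Tgfb1 made up 49.7 ± 5.55% in FK228+YF, 21.8 ± 0.959% in FK228, 23.8 ± 4.77% in YF and 24.6 ± 0.947% in control. The combined treatment thus showed near-equal Tgfb1 and Tgfb3, and the libraries of the other groups showed Tgfb3 in the larger part. No test was run on these shares.

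**Figure D3:**
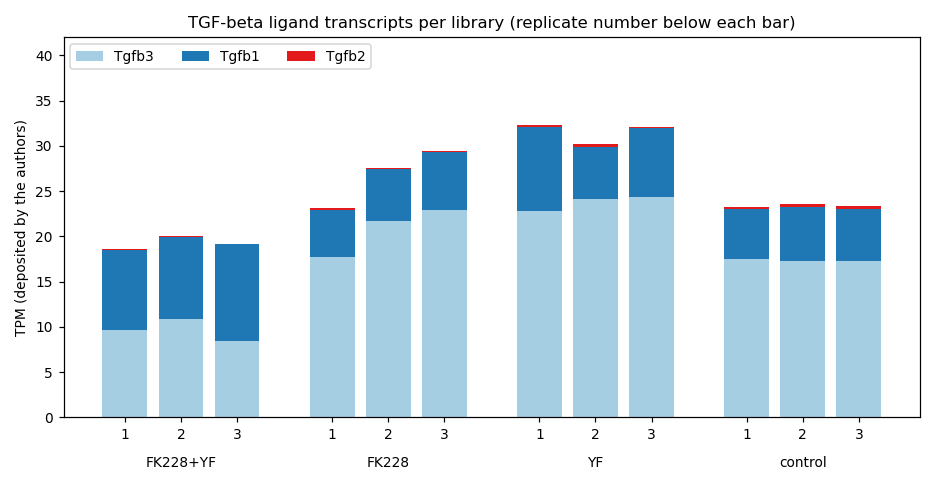
Deposited TPM of the ligand genes, stacked for each library, with the replicate number under each bar and groups from left to right. Tgfb3 takes 50% of the sum on average in FK228+YF libraries and 74.3% to 77.8% in the other groups, and Tgfb2 is barely visible.

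The type I receptor gene fell in each treatment and most with both. Tgfbr1 (chromosome 4, 47353222 to 47414926) encodes the kinase that phosphorylates SMAD2 and SMAD3. It stood at 58.4, 53.7 and 50.3 CPM in FK228+YF libraries, 120.3, 137 and 145 in FK228, 150.2, 173 and 160.0 in YF and 212, 248 and 223 in control. The 4 groups did not overlap, and their order was FK228+YF, FK228, YF and control from low to high. Tgfbr1 fell against control in each case, with log2 fold changes of -2.07 ± 0.08 for FK228+YF (adjusted p = 7.66e-15), -0.76 ± 0.08 for FK228 (adjusted p = 3.14e-08) and -0.50 ± 0.08 for YF (adjusted p = 5.01e-05). FK228 lay below YF at a log2 fold change of -0.26 ± 0.08 (adjusted p = 0.00573), a call that ended without FK228 replicate 1 (-0.16, adjusted p = 0.0671, with a range of 0.00241 to 0.0671 over the alternatives).

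Tgfbr2 (chromosome 9, 116087695 to 116175363) encodes the type II receptor, which binds ligand first. Levels were 70.5, 76.7 and 74.4 CPM in FK228+YF, 95.9, 107 and 111 in FK228, 90.3, 84.3 and 88.9 in YF and 96.7, 98.7 and 96.4 in control. FK228+YF libraries were the lowest, and FK228 libraries overlapped control. Tgfbr2 fell with FK228+YF, with log2 fold changes of -0.40 ± 0.06 against control (adjusted p = 3.58e-06), -0.50 ± 0.06 against FK228 (adjusted p = 6.19e-07) and -0.25 ± 0.06 against YF (adjusted p = 0.000872). FK228 alone gave 0.10 ± 0.06 (adjusted p = 0.13) and YF alone -0.15 ± 0.06 (adjusted p = 0.0615), which did not pass here. Both passed with DESeq2, at 0.13 (adjusted p = 0.0496) and -0.16 (adjusted p = 0.0355), and without FK228 replicate 1, at 0.18 (adjusted p = 0.0122) and -0.16 (adjusted p = 0.0275), where the alternatives ranged from adjusted p = 0.0122 to 0.433 and from 0.0275 to 0.197. FK228 set against YF was higher by 0.25 ± 0.06 (adjusted p = 0.00106). The ratio of Tgfbr1 to Tgfbr2 in TPM was 0.602 ± 0.0655 in FK228+YF, 1.05 ± 0.0234 in FK228, 1.51 ± 0.161 in YF and 1.93 ± 0.142 in control, so that Tgfbr2 exceeded Tgfbr1 per length in FK228+YF libraries and not in the other groups.

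Smad3 (chromosome 9, 63646766 to 63757994) encodes the receptor-activated SMAD that binds DNA, and it was highest with FK228 alone. It stood at 187, 198 and 206 CPM in FK228+YF, 275, 288 and 301 in FK228, 192, 180.0 and 178 in YF and 182, 196 and 192 in control. FK228 libraries lay above all others, and the other 3 groups overlapped. Smad3 rose 1.51-fold with FK228 against control (log2 0.60 ± 0.06, adjusted p = 7.33e-09) and 1.57-fold against YF (adjusted p = 3.31e-09), and it was lower with FK228+YF than with FK228, at a log2 fold change of -0.55 ± 0.06 (adjusted p = 9.11e-08). FK228+YF gave 0.05 ± 0.06 (adjusted p = 0.418) and YF gave -0.05 ± 0.06 (adjusted p = 0.529) against control, and neither passed.

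Smad7 (chromosome 18, 75367365 to 75395935) encodes the inhibitory SMAD, itself a known TGF-beta target gene. Levels were 23.7, 27.9 and 22.4 CPM in FK228+YF, 38.1, 37.2 and 32.7 in FK228, 27.2, 24.1 and 26.5 in YF and 32.9, 38.2 and 42.5 in control. Both groups with YF lay below both groups without it. Smad7 fell with log2 fold changes of -0.62 ± 0.10 for FK228+YF against control (adjusted p = 7.39e-06), -0.55 ± 0.10 for FK228+YF against FK228 (adjusted p = 9.2e-05) and -0.54 ± 0.10 for YF against control (adjusted p = 0.000202). The FK228 changes were -0.07 ± 0.09 against control (adjusted p = 0.502) and -0.07 ± 0.10 within YF cells (adjusted p = 0.519). FK228 set against YF was higher by 0.47 ± 0.10 (adjusted p = 0.00028).

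Ccn2 showed the largest rise of the 10 genes. It lies on chromosome 10 (24595442 to 24598683) and encodes connective tissue growth factor, a matricellular protein. Its level was 571, 747 and 574 CPM in FK228+YF libraries, 671, 630.0 and 617 in FK228, 202, 204 and 210 in YF and 124, 93.9 and 101 in control. The FK228+YF and FK228 libraries overlapped each other and lay far above YF, which lay above control. Ccn2 rose 5.93-fold with FK228+YF (log2 2.57 ± 0.11, adjusted p = 2.27e-12), 6.01-fold with FK228 (log2 2.59 ± 0.11, adjusted p = 5e-12) and 1.93-fold with YF (log2 0.95 ± 0.11, adjusted p = 5.72e-06) against control. FK228+YF against FK228 gave -0.02 ± 0.10 (adjusted p = 0.889), and FK228 was 3.12-fold higher than YF (adjusted p = 1.46e-09).

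Ccn1 (chromosome 3, 145646971 to 145649985), whose promoter window is shown above, encodes the related matricellular protein CYR61. It had 159.8, 216 and 164 CPM in FK228+YF, 241, 241 and 207 in FK228, 141, 162 and 151 in YF and 152, 123 and 140.1 in control. FK228 libraries lay above control and YF without overlap, and YF overlapped control. Ccn1 rose 1.66-fold with FK228 (log2 0.73 ± 0.11, adjusted p = 4.5e-05) and 1.30-fold with FK228+YF (log2 0.38 ± 0.11, adjusted p = 0.00676) against control, while YF gave 0.13 ± 0.11 (adjusted p = 0.411). FK228+YF was below FK228 at -0.35 ± 0.11 (adjusted p = 0.0151). This call ended without FK228+YF replicate 1 (-0.28, adjusted p = 0.0636), FK228+YF replicate 3 (-0.29, adjusted p = 0.0631) or FK228 replicate 1 (-0.34, adjusted p = 0.0538). FK228+YF against YF gave 0.25 ± 0.11 (adjusted p = 0.059), which passed without FK228+YF replicate 1 (0.32, adjusted p = 0.0223) or replicate 3 (0.31, adjusted p = 0.0367).

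Of the other CCN family genes in the lists, Ccn3 and Ccn6 had too few counts to be tested. Ccn5, whose protein lacks the C-terminal domain of CCN2, had 1.54 ± 0.426 CPM in FK228+YF, 4.63 ± 0.341 in FK228, 13.5 ± 2.35 in YF and 26.5 ± 2.54 in control, and fell with FK228+YF at a log2 fold change of -4.10 ± 0.16 against control (adjusted p = 4.03e-15). Ccn5 also fell with FK228 at -2.52 ± 0.14 (adjusted p = 1.53e-12) and with YF at -0.97 ± 0.12 (adjusted p = 3.6e-06). Ccn4 had 57.8 ± 4.84 CPM in FK228+YF, 124 ± 2.98 in FK228, 149.7 ± 11.7 in YF and 168 ± 8.41 in control. It fell with FK228+YF at -1.54 ± 0.07 (adjusted p = 1.52e-14) and with FK228 at -0.44 ± 0.07 (adjusted p = 5.2e-06), while YF gave -0.16 ± 0.07 and did not pass (adjusted p = 0.0612).

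Fn1 rose against control in all 3 treated groups. It lies on chromosome 1 (71585473 to 71653280) and encodes fibronectin, a matrix glycoprotein that hepatocytes also secrete into plasma. Its level was 809, 912 and 967 CPM in FK228+YF, 925, 991 and 1083 in FK228, 937, 789 and 879 in YF and 386, 416 and 431 in control. Control libraries were the lowest by far, and the treated groups overlapped one another. Fn1 rose 2.18-fold with FK228+YF (log2 1.12 ± 0.08, adjusted p = 3.71e-11), 2.43-fold with FK228 (log2 1.28 ± 0.08, adjusted p = 1.09e-11) and 2.11-fold with YF (log2 1.08 ± 0.08, adjusted p = 2e-09). FK228+YF against YF gave 0.05 ± 0.08 (adjusted p = 0.623) and against FK228 -0.16 ± 0.08 (adjusted p = 0.0986), and neither passed. The comparison with FK228 passed without FK228+YF replicate 3 (-0.22, adjusted p = 0.0497) or FK228 replicate 1 (-0.23, adjusted p = 0.0268). FK228 exceeded YF by 0.20 ± 0.08 (adjusted p = 0.031), a call that ended without FK228 replicate 3 (0.14, adjusted p = 0.148), YF replicate 2 (0.14, adjusted p = 0.176) or YF replicate 3 (0.21, adjusted p = 0.0643). The summed fibroblast markers and the stellate marker Des given above were also higher in the treated groups. Their part in the Fn1 and Ccn2 values was not tested. Col1a1 carried most of the fibroblast sum, and no fibroblast marker exceeded 1.09 TPM in any library.

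Does FK228 act on these genes alike in cells with and without YF? FK228+YF was set against YF for the effect with the mutants, where 6 of the 10 genes passed, 2 higher and 4 lower, among 70.6% of all genes (34.7% higher and 35.9% lower). Of the 10 genes, 7 had a FK228 effect that differed between the 2 settings, and in all 7 the effect was more negative with YF, against 26.5% of all genes tested (15.3% more negative and 11.1% more positive). The most negative difference was that of Tgfb3, at -1.53 ± 0.11 on the log2 scale (adjusted p = 7.18e-09): FK228 changed it by -1.18 with YF and by 0.35 without. For Fn1 the difference was -1.24 ± 0.11 (adjusted p = 1.25e-07), with FK228 effects of 0.05 in YF cells and 1.28 without YF. Ccn2 differed by -0.97 ± 0.15 (adjusted p = 0.000185), with effects of 1.62 in YF cells and 2.59 without, both of which passed. Tgfbr1 differed by -0.81 ± 0.11 (adjusted p = 2.42e-05), with effects of -1.57 and -0.76. Thus FK228 raised Ccn2 and lowered Tgfbr1 in both settings, raised Fn1 in cells without YF while its effect there with YF did not pass, and changed Tgfb3 in opposite directions.

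Smaller differences were found for Smad3 at -0.50 ± 0.08 (adjusted p = 0.000121) and Tgfbr2 at -0.35 ± 0.08 (adjusted p = 0.00393). Ccn1 differed by -0.48 ± 0.16 (adjusted p = 0.0366), and this call ended in 9 of 18 alternatives, with adjusted p from 0.000673 to 0.0933. They include 8 that each left out 1 library (FK228+YF replicate 1 or 3, FK228 replicate 1 or 2, YF replicate 2 or 3, control replicate 2 or 3), with values of -0.40, -0.42, -0.46, -0.45, -0.43, -0.49, -0.41 and -0.49, and the ninth, with no count filter, gave -0.50. Smad7 (-0.00042 ± 0.13, adjusted p = 0.999), Tgfb2 (-0.61 ± 0.54, adjusted p = 0.438) and Tgfb1 (0.37 ± 0.17, adjusted p = 0.124) did not pass. For Tgfb1 the difference passed without YF replicate 1 (0.52, adjusted p = 0.0264, with a range of 0.0264 to 0.319).

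**Figure D4:**
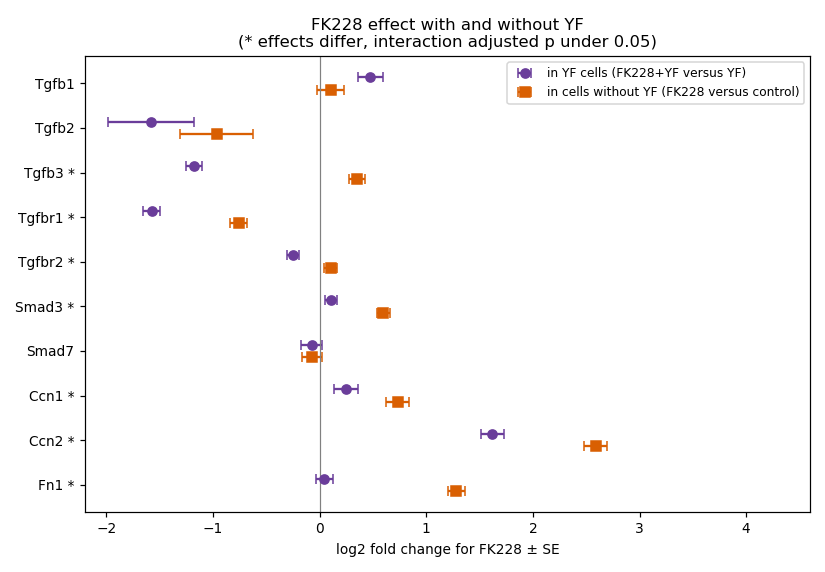
Log2 fold change for FK228 with its SE, in YF cells (circles, upper of each pair) and in cells without YF (squares, lower). An asterisk marks the 7 genes whose interaction passed, and Tgfb3 is the gene with passed effects on opposite sides of 0 (-1.18 and 0.35).

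The reverse view, FK228+YF against FK228, gave the effect of YF in inhibitor-treated cells, and 7 of the 10 genes passed, 1 higher (Tgfb1) and 6 lower. The background was 52.9% of all genes (26.6% higher and 26.3% lower), and the median log2 fold change was -0.52 for the 10 genes and -0.0034 for all genes. Tgfbr1 had a log2 fold change of -1.31 ± 0.08 (adjusted p = 1.36e-10), which was the largest of the 6. Set directly against each other, FK228 and YF differed in 7 of the 10 genes, 6 higher and 1 lower with FK228 (Tgfbr1), against 61.2% of all genes (27.8% higher and 33.3% lower). Ccn2 showed the largest of these differences, followed by Smad3 at 0.65 ± 0.06 and Ccn1 at 0.60 ± 0.11 (adjusted p = 0.00032).

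Other genes of the pathway were taken as 6 lists with 111 genes, of which 92 were tested, and their counts are read against the backgrounds given above. Latent TGF-beta is held in the matrix by LTBP proteins and freed by proteases, thrombospondin and alpha v integrins. Of 11 tested genes of this storage and activation list, 3 were higher and 6 lower with FK228+YF, 4 higher and 6 lower with FK228 and 1 higher and 3 lower with YF. Ltbp1, a latent TGF-beta binding protein gene, fell to 14.2 ± 0.994 CPM in FK228+YF and 14.6 ± 1.27 in FK228, against 64 ± 7.73 in control (adjusted p = 1.84e-14 and 6.4e-14). With YF it fell less, at a log2 fold change of -0.28 ± 0.08 (adjusted p = 0.016). Thbs1, the gene of the activator thrombospondin 1, rose to 42.4 ± 10.1 CPM in FK228+YF and 73.1 ± 4.62 in FK228, against 19.3 ± 2.32 in control (adjusted p = 2.7e-06 and 1.21e-08). For Thbs1, YF gave a log2 fold change of -0.39 ± 0.15 that did not pass (adjusted p = 0.0566). Furin, whose protease cleaves the TGF-beta precursor, had 35.2 ± 2.15 CPM in FK228+YF, 50.1 ± 3.66 in FK228, 78 ± 2.99 in YF and 107 ± 16.2 in control, and fell in each comparison with control. The integrin subunit gene Itgav rose with FK228+YF by 0.99 ± 0.07 and with FK228 by 1.02 ± 0.07 on the log2 scale.

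Of 10 other receptor genes of the family, 2 were higher and 5 lower with FK228+YF, 2 higher and 3 lower with FK228 and 1 higher and 3 lower with YF. The co-receptor gene Tgfbr3 (betaglycan) rose to 4.54 ± 0.914 CPM in FK228+YF and 3.42 ± 0.266 in FK228, against 1.33 ± 0.295 in control (adjusted p = 6.73e-08 and 6.45e-06). The co-receptor gene Eng (endoglin) fell to 1.06 ± 0.317 CPM in FK228+YF and 1.84 ± 0.345 in FK228, against 4 ± 0.449 in control (adjusted p = 1.13e-07 and 6.39e-05). These co-receptors thus went in opposite directions.

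SMADs and their regulators leaned to lower values. Of 20 tested, 1 was higher and 13 lower with FK228+YF, 1 higher and 11 lower with FK228 and 0 higher and 6 lower with YF, with median log2 fold changes of -0.34, -0.16 and -0.08. Skil, the gene of the SMAD corepressor SnoN, had 31.4 ± 1.65 CPM in FK228+YF, 42.2 ± 2.65 in FK228, 55 ± 4.72 in YF and 70.6 ± 2.7 in control, and fell in all 3 comparisons with control (adjusted p = 2.53e-12, 5.73e-09 and 0.000364). Smurf1, a ubiquitin ligase gene of receptor and SMAD turnover, fell with FK228 at a log2 fold change of -0.66 ± 0.07, and the corepressor gene Tgif1 fell with FK228+YF at -0.87 ± 0.06.

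Known TGF-beta target genes went both ways, with 8 of 17 tested higher and 5 lower with FK228+YF, 8 higher and 4 lower with FK228 and 8 higher and 3 lower with YF. Postn, the periostin gene, rose to 5.27 ± 0.903 CPM in FK228+YF, 4.05 ± 0.691 in FK228 and 3.65 ± 0.663 in YF, against 0.697 ± 0.105 in control (adjusted p = 1.85e-10, 5.37e-09 and 1.5e-07). Snai1, a transcription factor gene of mesenchymal transition, rose by 1.66 ± 0.12 with FK228+YF, by 1.22 ± 0.13 with FK228 and by 0.65 ± 0.13 with YF (adjusted p = 0.000731). The 5 genes lower with FK228+YF are named here after their values were seen. Their log2 fold changes were -1.42 for Tpm1, -0.98 for Hmga2, -0.97 for Jag1, -0.77 for Tnc and -0.60 for Id2. Tpm1 had 453 ± 19.5 CPM in FK228+YF and 1216 ± 78.3 in control. Col1a1, the gene of a collagen I chain, had 4.43 ± 0.871 CPM in FK228+YF, 5.42 ± 0.618 in FK228, 1.85 ± 0.242 in YF and 1.33 ± 0.147 in control. It rose 3.32-fold with FK228+YF (adjusted p = 6.07e-08) and 4.07-fold with FK228 (adjusted p = 7.63e-09), and YF gave a log2 fold change of 0.48 ± 0.22 that did not pass (adjusted p = 0.0981). The collagen genes Col1a2 and Col3a1 and the genes Tgfbi, Tagln, Mmp2 and Lox had at most 7 counts in any library and were not tested.

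In the list of Hippo pathway genes, TEAD factors and YAP targets, 1 of 20 tested was higher and 14 lower with FK228+YF, 2 higher and 10 lower with FK228 and 1 higher and 5 lower with YF. The median log2 fold changes were -0.50, -0.18 and -0.05. Tead2, a TEAD factor gene, had 18.4 ± 1.12 CPM in FK228+YF, 29.9 ± 2.54 in FK228, 64.3 ± 2.74 in YF and 85.8 ± 4.27 in control, and fell in each comparison with control (adjusted p = 1.31e-16, 6.61e-14 and 6.01e-05). Yap1 fell with FK228+YF at a log2 fold change of -1.46 ± 0.07 (adjusted p = 3.51e-14). It also fell with FK228 at -0.85 ± 0.07 (adjusted p = 3.53e-10) and with YF at -0.18 ± 0.06 (adjusted p = 0.04). The 2 genes of the list that were higher with FK228, named here after their values were seen, were Wwtr1 and Ankrd1. Wwtr1, the gene of TAZ, had 75.2 ± 1.98 CPM in FK228+YF, 97.7 ± 2.56 in FK228, 79.2 ± 4.32 in YF and 87.4 ± 7.06 in control. It rose with FK228 by 0.16 ± 0.06 on the log2 scale (adjusted p = 0.0263) and fell with FK228+YF at -0.22 ± 0.06 (adjusted p = 0.00342). Ankrd1, a YAP target gene, rose with FK228 by 0.57 ± 0.15 (adjusted p = 0.00519). For Ankrd1, FK228+YF gave 0.22 ± 0.15 (adjusted p = 0.203) and YF gave 0.40 ± 0.15 (adjusted p = 0.061) against control, and neither passed.

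Fibronectin receptors and assembly partners had 2 of 14 tested genes higher and 8 lower with FK228+YF, 5 higher and 3 lower with FK228 and 2 higher and 4 lower with YF. The integrin beta 1 gene Itgb1, a subunit of the main fibronectin receptor, had 553 ± 35.7 CPM in FK228+YF, 520 ± 27.9 in FK228, 515 ± 33.3 in YF and 394 ± 12 in control. It rose in all 3 comparisons with control, as Fn1 did, by 0.49 ± 0.07, 0.40 ± 0.07 and 0.39 ± 0.07 on the log2 scale (adjusted p = 7.32e-07, 1.51e-05 and 0.000116). Tns1, the gene of tensin 1 in fibrillar adhesions, fell to 115 ± 9.12 CPM in FK228+YF and 187 ± 6.23 in YF, against 275 ± 12.9 in control (adjusted p = 2.17e-13 and 1.12e-06).

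**Figure D5:**
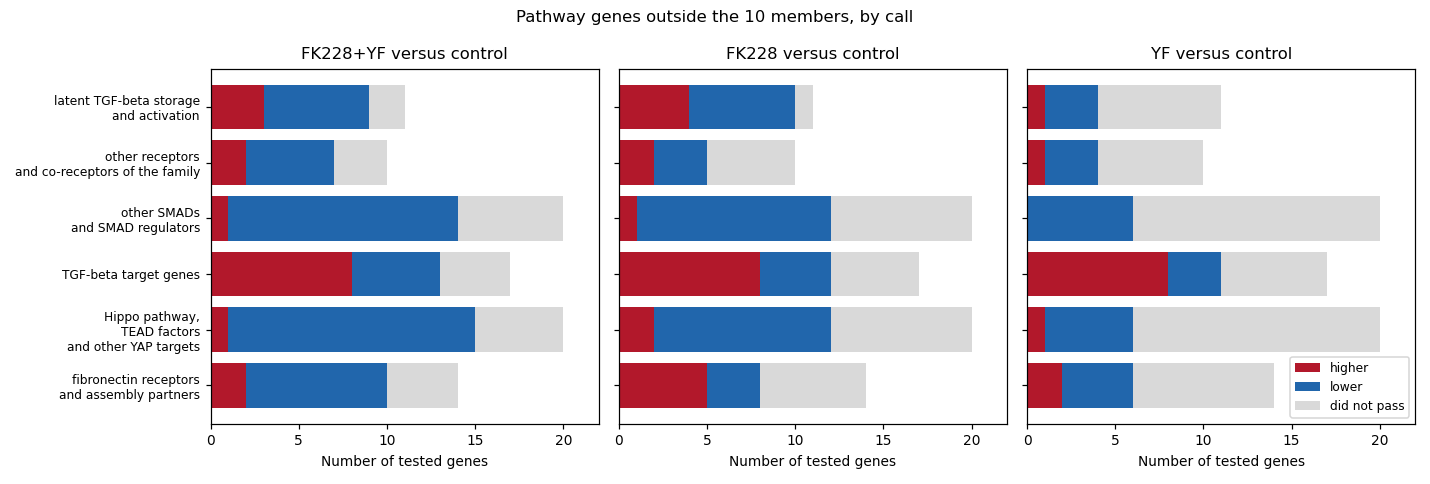
Number of tested genes in each of the 6 pathway lists that were higher (red), lower (blue) or did not pass (grey) against control, for FK228+YF (left), FK228 (middle) and YF (right). Hippo pathway genes and SMAD regulators show mostly lower calls, with 14 and 13 lower genes with FK228+YF.

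The genes whose pattern over the 12 libraries was most like that of a member were sought among 10441 genes with a mean of 5 CPM or more, by the Pearson correlation of log2 CPM. The libraries share groups, so this describes a common order of groups. For Ccn2, genes with such a pattern were Gm39701 (r = 0.991) and Ctla2a (r = 0.991). For Fn1 these were Palld (0.978), Lrig1 (0.971) and Rspo3 (0.970), and Rspo3 had 28.7 CPM in FK228+YF, 32.2 in FK228, 30.9 in YF and 6.9 in control. For Smad7 they were Rhobtb2 (0.976), Smtnl2 (0.961) and Tmem37 (0.947), each lower in both groups with YF. Among the 10 genes themselves, the strongest correlations over the same 12 libraries were those of Tgfbr1 with Tgfb2 at 0.876 and with Tgfb1 at -0.864. Ccn2 correlated with Ccn1 at 0.836 and with Fn1 at 0.828, Tgfb1 with Tgfb2 at -0.79 and Tgfbr1 with Ccn2 at -0.786. Correlations of Tgfb2 rest on few reads, as it held 3 to 31 counts per library.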

How the data were processed

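Expected counts per gene, made by the authors and deposited without scaling to library size, were rounded to whole numbers (16.6% of values were not whole). Tools listed in the submitters' processing notes, with no role given, are RSEM 1.2.12, HISAT2 2.0.4, DESeq2 1.4.5 and Bowtie2 2.2.5, and the build is GRCm38.p6. Whether strand was used is not given in the sources used here. TPM values are those deposited by the authors. The other 40 value columns were not used.

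Genes were kept by edgeR's filterByExpr (13346 of 19037), scaled by TMM and fitted with a robust quasi-likelihood model over 12 libraries with 1 term per group (edgeR 4.0.16, R 4.3.3). P-values were adjusted by Benjamini-Hochberg over all tested genes and called at 0.05. The SE of a log2 fold change is its size over the root of F. Scripts were tested on simulated counts. The members and lists were chosen with earlier results of these data known. Named genes were all 10 members, up to 4 called genes with the largest changes per list and comparison with control (mean CPM of 1 or more), and the 3 genes closest to Fn1, Ccn2 and Smad7. A gene that the rule names is not reported here. Alternatives were DESeq2 1.42.0, limma-voom (limma 3.58.1), RLE scaling, keeping all genes, keeping genes with 5 CPM in at least 3 libraries, the replicate number as a factor, the compared groups alone and leaving out each library.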

Additional observations from a re-analysis of the deposited data

Results flagged for a closer look

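The FK228 effect differed between cells with and without YF for 7 of the 10 genes, by the interaction term of the edgeR fit over 12 libraries. The differences, as the log2 FK228 effect with YF minus that without, were -1.53 for Tgfb3, -0.81 for Tgfbr1, -0.35 for Tgfbr2, -0.50 for Smad3, -0.48 for Ccn1, -0.97 for Ccn2 and -1.24 for Fn1. Tgfb3 was lower in all FK228+YF libraries than in all YF libraries, and higher in all FK228 libraries than in all control libraries. The Ccn1 difference is the least stable of the 7, as its adjusted p ranged from 0.000673 to 0.0933 over the alternatives. With 3 libraries per group, single outlying libraries were not tested for.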

How the results depend on the processing

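Over 70 member results (10 genes in 7 comparisons), 51 kept their direction and their side of the threshold under every alternative that gave a value. Tgfb2 was removed by the filter of 5 CPM and has no value there, and the interaction has no fit to the compared groups alone. The number of members called stayed within 1.5 times under all alternatives, and without single libraries it ranged from 6 to 8 for FK228 versus control, 5 to 6 for YF and 9 to 9 for FK228+YF. Changes of sign occurred only for values that did not pass. FK228 against YF for Tgfb3 was 0.0196 with RLE scaling, 0.0044 with the filter of 5 CPM, 0.0197 with DESeq2 and 0.0176 in the compared groups alone, and -0.0725 to 0.0581 without single libraries. The Smad7 interaction was 0.00138, 0.00213 and 0.00114 with RLE scaling, that filter and DESeq2, and -0.106 to 0.0882 without single libraries. Without single libraries, Smad7 with FK228 ranged from -0.166 to 0.0152, Fn1 in FK228+YF versus YF from -0.0241 to 0.111 and Ccn2 in FK228+YF versus FK228 from -0.175 to 0.047. The cause was not tested.

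Smad3 and Ccn1 in FK228+YF versus YF passed with RLE scaling (0.13 and 0.28), the filter of 5 CPM (0.14 and 0.29) and DESeq2 (0.13 and 0.28), Ccn1 also with limma-voom (0.24), and Fn1 in FK228+YF versus FK228 passed with no count filter (-0.19). The receptor list had 4 calls with FK228+YF and 3 with FK228 under the filter of 5 CPM, against 7 and 5 in the main setting. Adding the replicate number as a block left the number of members called at 7 for FK228 versus control, 5 for YF and 9 for FK228+YF, and gave 9015, 4056 and 10212 genes in all, against 9181, 4357 and 10325 without the block. Libraries with the same number did not deviate together (0 of 18 correlations over 0.1, from -0.215 to 0.0887), and 1 of 12 libraries lay closest to its own number. Tgfb2, with 3 to 31 counts per library, is limited by depth. RLE scaling and DESeq2 moved the share of higher calls by at most 5.1 percentage points.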

Other observations

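Tnc, the gene of the matrix protein tenascin C and a member of the TGF-beta target list, went in opposite directions with the single treatments. It had 26.1 ± 1.51 CPM in FK228+YF, 31.4 ± 4.82 in FK228, 106 ± 2.3 in YF and 44.4 ± 4.69 in control (SD, n = 3 each). It rose with YF by 1.26 ± 0.09 on the log2 scale (adjusted p = 3.6e-09, edgeR) and fell with FK228, at -0.50 ± 0.09 (adjusted p = 9.93e-05), and FK228 set against YF gave -1.76 ± 0.09 (adjusted p = 6.34e-12). In the storage and activation list, Lrrc32, the gene of the latent TGF-beta anchor GARP, had 6.24 ± 1.37 CPM in FK228+YF, 23.4 ± 0.806 in FK228, 16.9 ± 0.778 in YF and 16.7 ± 2.39 in control.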
